A study of Mus musculus with 12 samples.

Results

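Toll-like receptors and the NF-kB target genes downstream of them were followed in adult mouse neural stem/progenitor cells (aNSPCs) exposed to NAD+. The set holds 10 of the 55401 genes in the expression tables, chosen by name (Tlr2, Tlr3, Tlr4, Myd88, Nfkbia, Nfkb2, Relb, Tnfaip3, Icam1 and Vcam1), and the choice was made with the measured values of these samples known. The levels of the 10 genes and their changes with NAD+ are therefore given as a description, without p-values, whereas the other genes of the pathway were tested. The lists of these other genes were drawn up by role, but also with earlier results of these data known. The cells came from the forebrain of C57BL/6 mice aged 8 to 10 weeks and carried no engineered allele that the labels name. Under proliferating conditions they were kept with 20 ng/mL EGF and 20 ng/mL FGF-2, and under differentiation conditions they received 1 µM retinoic acid and 5 µM forskolin. Under each condition, cells without added NAD+ (Ctrl) were compared with cells given 1 mM NAD+, with 3 samples in each of the 4 groups and 12 samples in all. The study describes the 3 samples of a group as biological repeats. The sources used here do not say whether these were separate cultures or mice, nor how long the cells were exposed before RNA-seq, so p-values measure the spread between these samples.

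Toll-like receptors recognise molecules of microbes and of damaged cells. Tlr2 binds lipoproteins, Tlr4 binds lipopolysaccharide and Tlr3 binds double-stranded RNA inside endosomes. Tlr2 signals through the adaptor Myd88, Tlr3 through the adaptor Ticam1, and Tlr4 through both. These adaptors activate the IkB kinase complex, which marks the inhibitor encoded by Nfkbia for destruction and lets NF-kB dimers enter the nucleus. Nfkb2 and Relb encode the subunits of the non-canonical branch. Nfkbia, Nfkb2, Relb, Tnfaip3, Icam1 and Vcam1 are textbook NF-kB targets, so that some of them feed back on the pathway. In the brain these genes are best known from microglia, endothelial cells and reactive astrocytes, and Vcam1 is also known as an adhesion molecule of adult neural stem cells.

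The DNA element that NF-kB dimers bind, the kappaB site, was searched for near the start sites, because it is the sequence these genes are usually grouped by. RefSeq (GRCm38.p6) windows from 250 bases before to 50 bases after a start were at hand for 7 of the 10 genes. A match to the kappaB consensus of 10 bases, on either strand, was present for 5 of these 7 genes (Tlr2, Tlr3, Nfkbia, Nfkb2 and Tnfaip3). Of all 32851 windows 4.51% held a match, and of all 27025 genes 5.14% did. The looser motif GGGNNNNNCC, which overlaps the consensus and was also read on both strands, was present for 6 of the 7 genes and for 53.5% of all genes. Stretches of 30 bases around the matches are shown on the strand of the gene, with the matching bases in capitals and positions counted from the RNA start as 1.
Tlr2, positions -173 to -163, chr3:83841761-83841790, minus strand: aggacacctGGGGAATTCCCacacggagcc
Tlr2, positions -8 to 2, chr3:83841597-83841626, minus strand: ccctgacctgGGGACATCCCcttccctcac
Tlr3, positions -211 to -202, chr8:45410572-45410601, minus strand: agttgtttctGGGAGTTTCCtgcttttgag
Nfkbia, positions -29 to -20, chr12:55492657-55492686, minus strand: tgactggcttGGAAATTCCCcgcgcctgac
Nfkb2, positions -39 to -29, chr19:46304689-46304718, plus strand: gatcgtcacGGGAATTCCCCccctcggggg
Nfkb2, positions -11 to -2, chr19:46304716-46304745, plus strand: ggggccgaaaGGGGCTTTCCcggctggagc
Tnfaip3, positions -125 to -116, chr10:19015516-19015545, minus strand: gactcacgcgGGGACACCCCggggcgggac
Tnfaip3, positions -12 to -3, chr10:19015403-19015432, minus strand: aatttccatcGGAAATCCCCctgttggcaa
Nfkb2 has 2 further matches around a second RNA start, which are not printed. These matches are letters in a reference sequence, and no binding was measured here. Nothing is drawn from them about the NAD+ response.

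Expression was measured by RNA-seq and is given as FPKM, in which the fragments of a gene are divided by its transcript length and by the mapped fragments of its sample, so that levels of different genes can be compared. The FPKM values of a sample summed to between 308828 and 363330, they are rounded to 0.01, and the depth of the samples is unknown. The highest sum belonged to proliferating Ctrl replicate 1. Replicate 1 of both proliferating groups also stood apart in part of the astrocyte markers. Of 7 markers it was the highest of its group for 4 in Ctrl (Gfap, Aqp4, Aldh1l1 and S100b) and for 6 with NAD+, but it was the lowest for the other 3 in Ctrl (Slc1a2, Slc1a3 and Aldoc). Aqp4, a water channel of astrocytes, was at 13.68 FPKM in proliferating Ctrl replicate 1 against 5.82 and 5.23 in the other Ctrl samples, and at 9.95 in NAD+ replicate 1 against 2.42 and 2.82. Neural stem/progenitor markers were high in both tables (summed FPKM of 7 markers at least 749 in every sample). Their sum was lower with NAD+ under proliferating conditions, between 1576.17 and 2083.23 against 2576.95 to 2823.07 in Ctrl. Fabp7, at up to 2253.74 FPKM, was the highest of them, and limma called 0 of the 7 there. Nes did not follow the sum, with a mean of 68.78 FPKM in proliferating Ctrl and 81.99 with NAD+. Endothelial markers were near 0, with all 8 of them under 0.5 FPKM in every sample. Of 12 markers of microglia and macrophages, 11 were under 0.5 FPKM in every sample, and the exception was Cd68.

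Tlr2 was higher in NAD+ cells than in Ctrl cells under differentiation conditions, where it became the most abundant Toll-like receptor. It was at 3.06, 3.06 and 2.81 FPKM in Ctrl and at 8.77, 10.05 and 9.17 in NAD+ cells. All 3 NAD+ samples lay above all 3 Ctrl samples, and the means were 2.98 ± 0.14 and 9.33 ± 0.66 FPKM (SD, n = 3), a ratio of 3.13. On the log2(FPKM + 0.1) scale, which understates the change of low genes, the difference was 1.61 (SE 0.08). Under proliferating conditions Tlr2 stood just above the filter of a mean of 0.1 FPKM, at 0.22, 0.11 and 0.10 in Ctrl and 0.17, 0.17 and 0.10 in NAD+ cells. These groups overlapped, and the difference was 0.04 (SE 0.33), with a sign that turned under median-ratio scaling. In bulk samples, fewer cells of a type and less RNA per cell cannot be told apart, and this holds for Tlr2 and each gene that follows.

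Markers of other cells were set beside Tlr2 under differentiation conditions. Cd68, a lysosomal protein of macrophages that other cells also express, was at 1.92, 1.34 and 1.51 FPKM in Ctrl and 3.30, 3.5 and 3.91 in NAD+ cells (log2 difference 1.13, SE 0.15, adjusted p = 0.0126, limma). Cd68 was also higher in proliferating NAD+ cells, where Tlr2 overlapped. There it was at 1.01, 1.16 and 0.77 in Ctrl and 6.89, 3.07 and 2.83 with NAD+ (log2 difference 1.91, SE 0.35, adjusted p = 0.103, limma). Under differentiation conditions the sum of all 12 microglial and macrophage markers lay between 1.93 and 2.06 in Ctrl and between 3.33 and 4.34 in NAD+ cells. Without Cd68 the other 11 summed to between 0.14 and 0.63 in Ctrl and between 0.03 and 0.43 in NAD+ cells, below Tlr2 itself in every sample. Gfap, the intermediate filament of astrocytes, rose from 597.66, 545.96 and 642.12 to 998.61, 965.04 and 967.03 FPKM (log2 difference 0.72, SE 0.07, adjusted p = 0.00613). Of the 7 astrocyte markers, 3 rose (Gfap, Slc1a2 and Slc1a3) and 2 fell (Aldh1l1 and Aldoc), and their sum lay between 1457.09 and 1627.47 in Ctrl and between 1907.27 and 1937.86 in NAD+ cells. The part of astrocyte numbers in the Tlr2 difference was not tested.

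Tlr3, the receptor for double-stranded RNA, was expressed in every sample and overlapped between the groups under both conditions. Under proliferating conditions it was at 4.49, 3.53 and 3.06 FPKM in Ctrl and 5.18, 3.95 and 3.29 in NAD+ cells (log2 difference 0.15, SE 0.21). Replicate 1 of each group was the highest of its group, as it was for Aqp4. Under differentiation conditions the values were 5.31, 5.95 and 5.61 in Ctrl and 4.91, 5.96 and 5.44 in NAD+ cells. The difference of -0.05 (SE 0.09) changed sign under both other scalings.

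Tlr4, the receptor for lipopolysaccharide, was low throughout. Under proliferating conditions it was at 0.11, 0.14 and 0.15 FPKM in Ctrl and 0.65, 0.37 and 0.43 in NAD+ cells. The groups did not overlap, the ratio of means was 3.63 and the log2 difference was 1.30 (SE 0.28), or 1.03 without replicate 1 of both groups. Added to FPKM, 1 in place of 0.1 gave 0.38 and 0.01 gave 1.75, so the size of the difference depends on the added value at this level. Under differentiation conditions Tlr4 was listed at 0 in all 3 Ctrl samples and at 0.03, 0.06 and 0.05 in NAD+ cells, under the filter, and no fold is given.

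**Figure D1:**
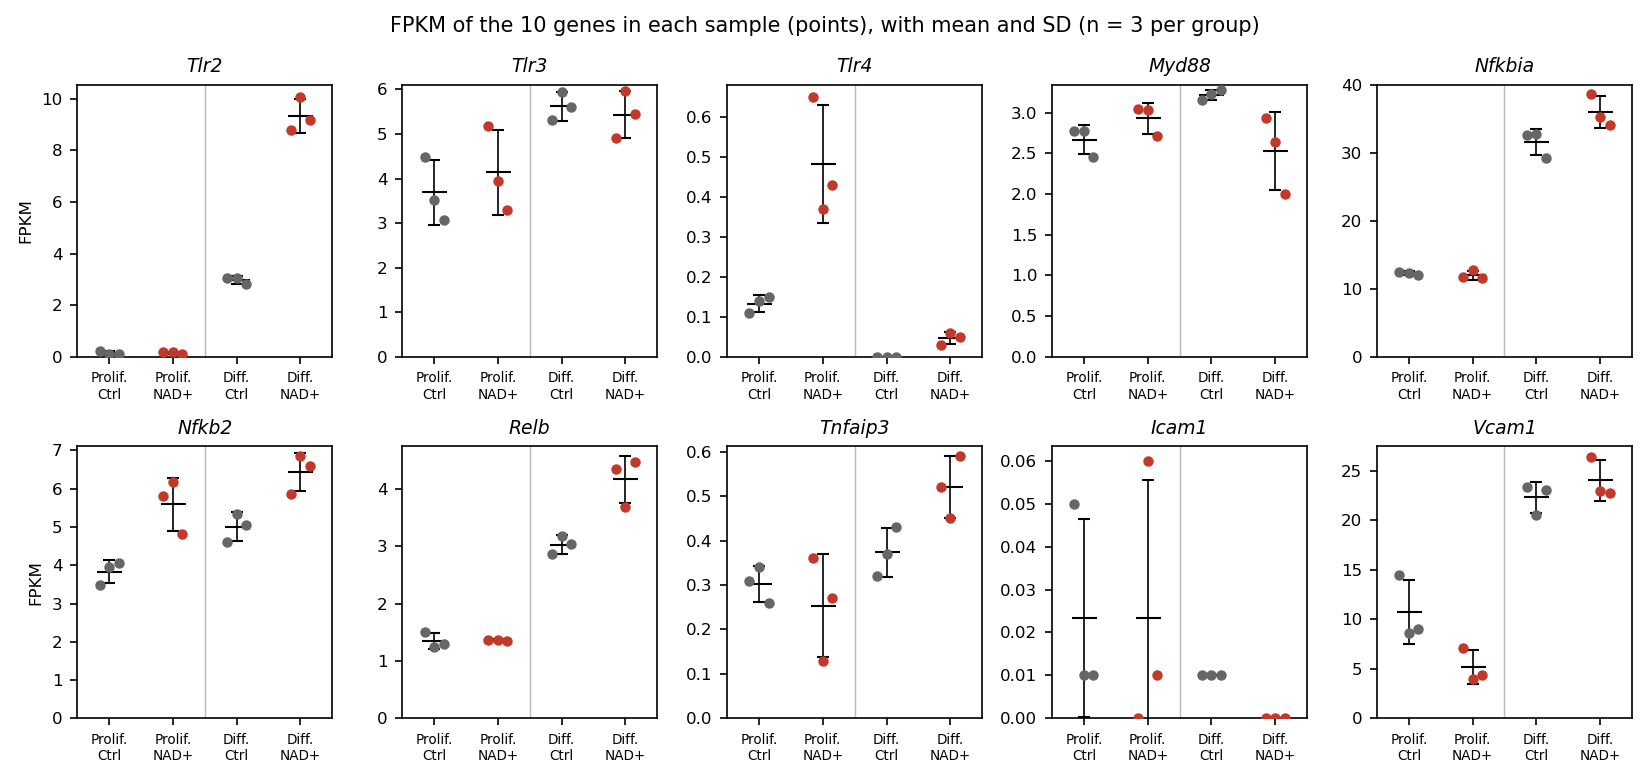
FPKM (vertical axes, each from 0) of the 10 genes in each of the 12 samples, with Ctrl in grey and NAD+ in red under proliferating (left of the line) and differentiation (right) conditions; points are samples, and bars are the mean and SD of 3. Tlr2 under differentiation conditions lies between 8.77 and 10.05 with NAD+ and at or below 3.06 in Ctrl, and Vcam1 under proliferating conditions lies at or below 7.10 with NAD+ and at or above 8.64 in Ctrl.

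The rest of the receptor family was mostly silent. Of 12 Toll-like receptor genes, 8 (Tlr1, Tlr6, Tlr7, Tlr8, Tlr9, Tlr11, Tlr12 and Tlr13) never passed 0.19 FPKM. Tlr5, the flagellin receptor, was the remaining one, and it moved the other way from Tlr2. Under differentiation conditions it fell from 1.74, 1.86 and 1.54 FPKM in Ctrl to 0.55, 0.65 and 0.42 in NAD+ cells (log2 difference -1.51, SE 0.18, adjusted p = 0.00967, limma). Under proliferating conditions it was at 0.17, 0.14 and 0.08 FPKM in Ctrl and 0.15, 0.12 and 0.08 in NAD+ cells. Of the co-receptors, Ly96, the partner of Tlr4, was at 0.48, 0.49 and 0.67 FPKM in differentiation Ctrl and 0.71, 0.59 and 0.76 with NAD+, and Cd14, which hands lipopolysaccharide over to Tlr4, was at 0.80, 0.94 and 1.19 and at 1.08, 1.43 and 1.07. Neither passed the test (adjusted p = 0.430 and 0.457). In the list of 15 other Toll-like receptors and co-receptors, 5 were tested under each condition, and Tlr5 under differentiation conditions was the one called. Receptor levels in differentiation Ctrl cells were led by Tlr3, then Tlr2, then Tlr5, with no overlap between neighbours. In differentiation NAD+ cells the order was Tlr2, Tlr3 and Tlr5, again without overlap.

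**Figure D2:**
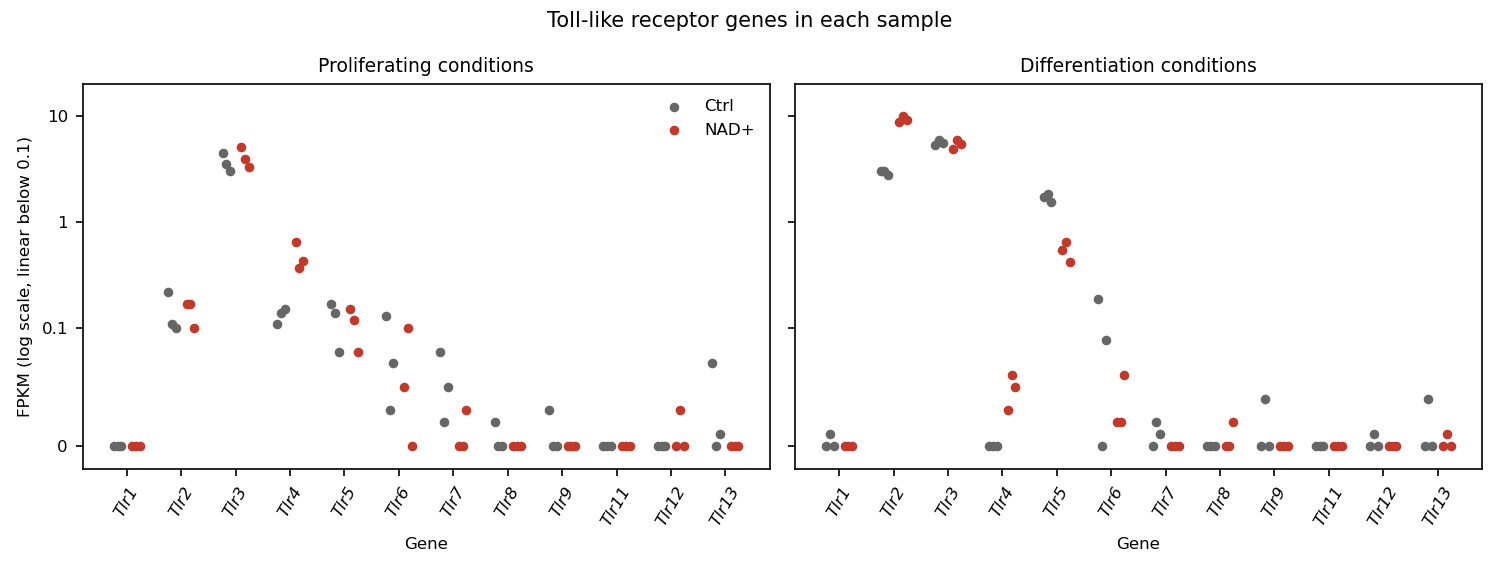
FPKM of 12 Toll-like receptor genes in each sample (vertical axis logarithmic, linear below 0.1), Ctrl in grey and NAD+ in red, for proliferating (left) and differentiation (right) conditions. In the right panel the NAD+ points lie above the Ctrl points for Tlr2 and below them for Tlr5, and most other receptors lie near 0.

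Myd88, the adaptor shared by most Toll-like receptors and the IL-1 receptor, went against Tlr2 under differentiation conditions. It was at 3.16, 3.23 and 3.28 FPKM in Ctrl and 2.94, 2.64 and 2.00 in NAD+ cells. All NAD+ samples lay below all Ctrl samples, and the log2 difference was -0.36 (SE 0.15). NAD+ replicate 3 was the lowest, and without it the difference was -0.20. Under proliferating conditions the values overlapped, at 2.77, 2.78 and 2.46 in Ctrl and 3.05, 3.03 and 2.71 in NAD+ cells (0.13, SE 0.12).

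Among 19 other adaptors and kinases between the receptors and NF-kB, 18 were tested under proliferating conditions and 0 were called, with 3 at an unadjusted p under 0.05. Irak1, the kinase that Myd88 recruits, was at 8.48, 8.49 and 8.91 FPKM in proliferating Ctrl and 13.03, 14.35 and 11.75 with NAD+, without overlap (log2 difference 0.59, SE 0.10, adjusted p = 0.0868). It is named here after its values were seen. Under differentiation conditions 17 were tested and 1 was called. Tab1, a partner of the kinase Map3k7 (TAK1), fell from 13.21, 12.96 and 12.54 FPKM to 9.50, 10.10 and 9.31 (log2 difference -0.42, SE 0.06, adjusted p = 0.0139).

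The non-canonical subunits were higher in NAD+ cells, Nfkb2 under both conditions and Relb under differentiation conditions. Nfkb2, which encodes the p100 precursor, was at 3.49, 3.95 and 4.07 FPKM in proliferating Ctrl and 5.80, 6.17 and 4.83 with NAD+ (log2 difference 0.53, SE 0.13). Under differentiation conditions it was at 4.61, 5.35 and 5.06 in Ctrl and 5.87, 6.85 and 6.59 with NAD+ (0.36, SE 0.09). The groups overlapped under neither condition, and the ratios of means were 1.46 and 1.29.

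Relb, the partner of the Nfkb2 product, was at 2.86, 3.18 and 3.04 FPKM in differentiation Ctrl and 4.34, 3.69 and 4.46 with NAD+. These groups did not overlap, and the log2 difference was 0.44 (SE 0.10). Under proliferating conditions Relb was at 1.51, 1.25 and 1.30 in Ctrl and 1.37, 1.37 and 1.35 with NAD+, within the spread of Ctrl, and the sign of the difference of 0.01 (SE 0.15) turned under both other scalings.

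The canonical subunits were set beside them. Rela was the most abundant subunit, at 14.33, 14.93 and 14.76 FPKM in differentiation Ctrl and 12.31, 13.63 and 14.30 with NAD+ (adjusted p = 0.307). Nfkb1 was at 2.73, 2.93 and 2.85 and at 2.92, 2.46 and 2.90 (adjusted p = 0.842). Rel, most abundant in lymphoid cells, was at 1.65, 1.29 and 1.31 and at 1.23, 1.52 and 1.41 (adjusted p = 0.942). In proliferating Ctrl cells the order by FPKM was Rela, Nfkb2, Nfkb1, Relb and Rel, without overlap between neighbours. In differentiation Ctrl cells it was Rela, Nfkb2, Relb, Nfkb1 and Rel, where Relb and Nfkb1 overlapped.

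Of the 14 other subunits, IkB proteins and IkB kinase genes, 13 were tested under each condition. Under proliferating conditions 0 were called and 2 had an unadjusted p under 0.05. Under differentiation conditions 1 rose and 2 fell. Traf2, an adaptor of TNF receptors that restrains non-canonical signalling, rose from 5.06, 5.59 and 5.16 FPKM to 6.88, 6.80 and 6.53 (log2 difference 0.35, SE 0.07, adjusted p = 0.0360). Chuk, the IKK-alpha kinase that acts on the Nfkb2 product, fell from 14.77, 14.86 and 13.71 to 11.35, 11.35 and 11.63 (-0.33, SE 0.06, adjusted p = 0.0232, or 0.0513 under median-ratio scaling). Map3k14, the kinase upstream of Chuk, was at 1.25, 1.27 and 1.46 in Ctrl and 1.17, 1.5 and 1.79 with NAD+ (adjusted p = 0.683).

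The inhibitors of the pathway differed in direction under differentiation conditions, with Nfkbia and Tnfaip3 higher and Nfkbib lower in every NAD+ sample. Nfkbia, which encodes IkB-alpha, was the most abundant of the 10 genes under differentiation conditions. There it was at 32.58, 32.77 and 29.28 FPKM in Ctrl and 38.64, 35.18 and 34.12 with NAD+, a ratio of 1.14 and a log2 difference of 0.19 (SE 0.07). The groups did not overlap, but the gap between them was smaller than the range within either. Under proliferating conditions it was at 12.53, 12.37 and 12 in Ctrl and 11.66, 12.73 and 11.55 with NAD+ (-0.04, SE 0.08), and these overlapped.

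Tnfaip3, which encodes the ubiquitin-editing protein A20, was low. It was at 0.32, 0.37 and 0.43 FPKM in differentiation Ctrl and 0.52, 0.45 and 0.59 with NAD+, without overlap (log2 difference 0.39, SE 0.20). Under proliferating conditions it was at 0.31, 0.34 and 0.26 in Ctrl and 0.36, 0.13 and 0.27 with NAD+, and these overlapped (-0.24, SE 0.33).

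Nfkbib, which encodes IkB-beta, fell under differentiation conditions from 9.33, 10.13 and 7.99 FPKM to 6.69, 5.93 and 5.91 (log2 difference -0.56, SE 0.11, adjusted p = 0.0320). The call was lost under median-ratio scaling (adjusted p = 0.0517) and quantile normalization (0.0511), and it was kept in 1 of the 6 fits without a sample. Nfkbiz, an atypical IkB protein of the nucleus, was at 17.77, 16.51 and 15.18 in Ctrl and 15.67, 16.95 and 14.64 with NAD+ (adjusted p = 0.683), and Nfkbie was at 0.98, 0.82 and 0.67 and at 0.92, 0.81 and 0.90 (adjusted p = 0.791). Of 17 other feedback regulators, 13 were tested under proliferating and 15 under differentiation conditions, and limma called 0 under either, with 1 at an unadjusted p under 0.05 each.

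Vcam1, the adhesion molecule that binds integrins on leukocytes and on neighbouring cells, was lower in proliferating NAD+ cells. It was at 14.43, 8.64 and 9.01 FPKM in Ctrl and 7.10, 3.97 and 4.33 with NAD+. The groups did not overlap, the ratio of means was 0.480 and the log2 difference was -1.05 (SE 0.28). Replicate 1 was the highest of its group in both, as for 4 of the 7 astrocyte markers, among them Aldh1l1 (129.30, 75.60 and 72.04 FPKM in Ctrl, 99.21, 54.79 and 55.08 with NAD+). Slc1a3 did not follow, at 236.86, 288.26 and 274.69 in Ctrl and 268.14, 251.05 and 250.02 with NAD+. Without replicate 1 of both groups the difference was -1.07, and without Ctrl replicate 1 alone it was -0.82. The sum of the 7 astrocyte markers lay between 1075.27 and 1126.16 in Ctrl and between 895.81 and 1035.02 with NAD+. The sum of the 7 stem/progenitor markers, of which Fabp7 was the highest, was also lower with NAD+, but they did not all move with it. Nes had a mean of 68.78 FPKM in Ctrl and 81.99 with NAD+, with overlap. Sox2 and Vim overlapped between the groups as well, and Hes5 was lower in every NAD+ sample. The part of either marker set in these values was otherwise not tested. Under differentiation conditions Vcam1 was at 23.32, 20.49 and 23.06 in Ctrl and 26.34, 22.98 and 22.70 with NAD+, with overlap (0.11, SE 0.08).

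Icam1, the receptor of leukocyte integrins, was all but absent. Under proliferating conditions it was at 0.05, 0.01 and 0.01 FPKM in Ctrl and 0.00, 0.06 and 0.01 with NAD+. Under differentiation conditions it was listed at 0.01 in all 3 Ctrl samples and at 0 in all 3 NAD+ samples, 1 rounding step apart, and no fold is given. In its family, Icam5, the ICAM of neurons, rose under differentiation conditions from 1.01, 0.77 and 1.04 FPKM to 1.71, 1.63 and 1.55 (log2 difference 0.74, SE 0.15, adjusted p = 0.0373). In proliferating cells Icam5 was at 0.26, 0.32 and 0.40 in Ctrl and 0.70, 0.80 and 0.56 with NAD+, also without overlap (adjusted p = 0.186, limma). Of the exon bases of Icam5, 30.8% are shared with genes on the opposite strand. Icam2 stayed at or under 0.03 FPKM and Icam4 was listed at 0 in every sample.

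Of 15 other genes of the ICAM family and of leukocyte adhesion, 6 were tested under proliferating conditions and 0 were called, with 1 at an unadjusted p under 0.05. Under differentiation conditions 7 were tested, 2 rose and 2 fell. Mcam, an adhesion molecule of vessels and of some tumours, fell from 2.30, 2.39 and 2.31 FPKM to 1.20, 1.11 and 1.05 (log2 difference -1.0, SE 0.11, adjusted p = 0.00727). Alcam fell from 9.16, 9.11 and 7.80 to 6.47, 6.64 and 6.06 (-0.43, SE 0.09, adjusted p = 0.0350), a call lost under median-ratio scaling (adjusted p = 0.0579) and quantile normalization (0.0544). Itgb1, the beta subunit of an integrin that binds Vcam1, rose from 140.99, 146.73 and 145.68 to 163.18, 164.50 and 164.37 (0.18, SE 0.04, adjusted p = 0.0467). Itga4, an integrin alpha subunit in this list, was under the filter there, at 0.11, 0.07 and 0.08 FPKM in Ctrl and 0.09, 0.06 and 0.10 with NAD+.

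**Figure D3:**
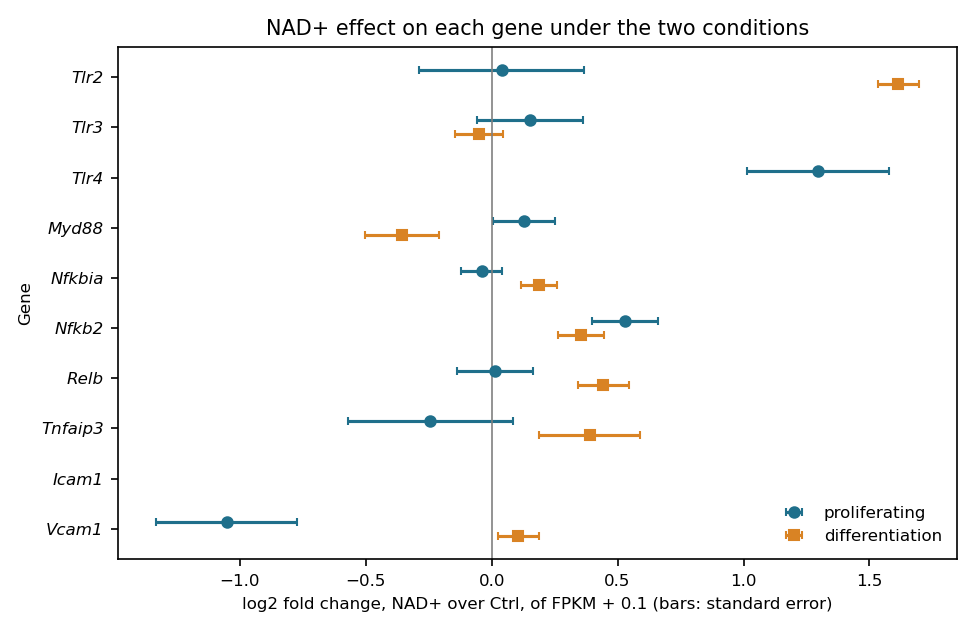
Log2 fold change of NAD+ over Ctrl on the log2(FPKM + 0.1) scale (horizontal axis) for each of the 10 genes, with circles for proliferating and squares for differentiation conditions and bars for the standard error; Icam1, and Tlr4 under differentiation conditions, lay under the filter and have no point. Tlr2 stands at 1.61 under differentiation and 0.04 under proliferating conditions, and Vcam1 at 0.11 and -1.05.

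Counts over the 10 genes were read against all genes tested. Under proliferating conditions 9 of 10 passed the filter, and at an adjusted p under 0.05 limma called 0 higher (0.0484% of the 18597 genes tested) and 0 lower (0.0968%), with 3 of the 9 at an unadjusted p under 0.05. The thresholds of the study for differentially expressed genes, an unadjusted p under 0.05 and a ratio of means over 2, were applied to the limma p-values. The p-values of the study were not used, so these counts are not those of the study. By these thresholds 1 gene was higher (Tlr4, background 1.6%) and 1 lower (Vcam1, background 1.41%). The groups did not overlap for 2 higher genes (Tlr4 and Nfkb2, background 15.5%) and 1 lower gene (Vcam1, background 8.59%). Under differentiation conditions 8 of 10 passed the filter, and 1 was called higher (Tlr2, background 2.27% of 19611 genes) and 0 lower (background 4.65%), with 5 of the 8 at an unadjusted p under 0.05. The same thresholds also gave Tlr2 alone, against 1.36% higher and 2.69% lower in the background. The groups did not overlap for 5 higher genes (Tlr2, Nfkbia, Nfkb2, Relb and Tnfaip3, background 9.68%) and 1 lower gene (Myd88, background 21.1%). The median log2 difference of the genes that passed was 0.04 against 0.07 over all genes under proliferating conditions, and 0.27 against -0.08 under differentiation conditions. Nothing is read from these counts, since the 10 genes were chosen with the values known. The share of all genes at an unadjusted p under 0.05 was not computed. Counts at that level, here and for the other pathway genes, therefore have no background.

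The NAD+ effect was compared between the conditions with a contrast in a fit of all 12 samples (17558 genes, of which 0.49% were called). The contrast was 1.58 (SE 0.28) for Tlr2, given without a test like those of the other chosen genes. It was 1.16 (SE 0.32) for Vcam1, 0.63 (SE 0.37) for Tnfaip3 and 0.43 (SE 0.16) for Relb, and it was -0.49 (SE 0.19) for Myd88. The median of this contrast over all genes was -0.16 as deposited and -0.01 under median-ratio scaling, so a shift of that size in the median depends on the scaling.

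Levels differed between the conditions without NAD+ as well, although both tables may have been scaled separately and no test was made across them. Mean FPKM in differentiation Ctrl over proliferating Ctrl was 20.8 for Tlr2, 2.56 for Nfkbia, 2.24 for Relb and 2.08 for Vcam1. It was 1.52 for Tlr3, 1.30 for Nfkb2, 1.23 for Tnfaip3 and 1.21 for Myd88. Tlr4 went the other way, from a mean of 0.133 FPKM to a listed 0. By level, Nfkbia and Vcam1 led in both tables. They overlapped in proliferating Ctrl cells and did not in differentiation Ctrl cells.

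The products that the pathway is best known for inducing were divided. Of 29 other NF-kB target genes, 17 were tested under proliferating conditions and 0 were called, with 6 at an unadjusted p under 0.05. Under differentiation conditions 19 were tested, 4 rose and 1 fell. Cxcl10, a chemokine also driven by interferon, rose from 12.61, 10.84 and 12.21 FPKM to 43.10, 40.26 and 41.66 (log2 difference 1.80, SE 0.07, adjusted p = 0.000572). Junb, a subunit of the transcription factor AP-1, rose from 10.74, 11.14 and 10.96 to 34.00, 29.44 and 32.64 (1.54, SE 0.07, adjusted p = 0.000805). Neither group pair overlapped, and both genes remained called without any 1 sample. Under proliferating conditions Junb was at 2.41, 3.43 and 4.01 FPKM in Ctrl and 4.92, 5.68 and 6.13 with NAD+. These did not overlap either (log2 difference 0.77, SE 0.20, adjusted p = 0.168, limma). Its NAD+ effect was not called different between the conditions (adjusted p = 0.138, limma).

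Ccl2, a chemokine that attracts monocytes, rose from 0.24, 0.40 and 0.90 FPKM to 2.42, 1.93 and 2.30 (2.06, SE 0.38, adjusted p = 0.0304). Ier3, an early response gene that modulates cell survival, rose from 6.87, 8.30 and 9.18 to 14.74, 16.27 and 22.41 (1.11, SE 0.18, adjusted p = 0.0202). Tnc, an extracellular matrix protein of the stem cell niche, fell from 1.78, 1.88 and 1.49 to 0.48, 0.74 and 0.34 (-1.60, SE 0.26, adjusted p = 0.0207). Under proliferating conditions Ccl2 was at 0.28, 0.76 and 0.14 FPKM in Ctrl and 0.58, 1.27 and 1.38 with NAD+, with overlap (adjusted p = 0.290, limma). Its NAD+ effect was not called different between the conditions (adjusted p = 0.658, limma). The classical cytokines were near 0, with Tnf at or under 0.12, Il6 at or under 0.06 and Il1b at or under 0.25 FPKM in every sample.

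For Cxcl10, Ier3 and Tnc the NAD+ effect itself differed between the conditions in the fit of all 12 samples. The contrast was 1.62 for Cxcl10 (SE 0.23, adjusted p = 0.0185), which was at or under 0.28 FPKM in every proliferating sample. It was 1.28 for Ier3 (SE 0.21, adjusted p = 0.0331), which lay between 10.87 and 13.28 FPKM in all proliferating samples. It was -2.05 for Tnc (adjusted p = 0.0168), which was at 18.01, 21.50 and 18.89 FPKM in proliferating Ctrl and 25.41, 27.46 and 27.15 with NAD+ (adjusted p = 0.117 within that condition). Without differentiation Ctrl replicate 1, differentiation Ctrl replicate 2 or proliferating NAD+ replicate 3, 0 pathway genes were called for this contrast, and without differentiation Ctrl replicate 3 it was Tnc alone. Ier3 was also lost without proliferating Ctrl replicate 2, proliferating Ctrl replicate 3, or NAD+ replicate 2 of either condition. Cxcl10 was also lost without differentiation NAD+ replicate 1 or 3. With 0.01 added before log2, or a minimum mean FPKM of 1, Cxcl10 was not called either.

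Of 17 other genes of the TNF and IL-1 receptor inputs, 11 were tested under proliferating conditions, where 0 were called and 1 had an unadjusted p under 0.05. Under differentiation conditions 12 were tested and 1 rose. Ltbr, the lymphotoxin receptor upstream of Nfkb2 and Relb, rose from 24.13, 22.73 and 23.16 FPKM to 26.93, 28.36 and 27.17 (0.24, SE 0.05, adjusted p = 0.0414). Tnfrsf1a, the main TNF receptor, was at 49.85, 55.69 and 56.26 in Ctrl and 59.76, 66.94 and 64.39 with NAD+ (0.24, SE 0.07, adjusted p = 0.0951), and it is named after its values were seen.

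Over the 125 genes of all 7 lists, 83 were tested under proliferating conditions and limma called 0, with 14 at an unadjusted p under 0.05. Under differentiation conditions 88 were tested. Of these 8 rose (9.09%, against 2.27% of all genes) and 7 fell (7.95%, against 4.65%), and the median log2 difference was 0.03 against -0.08 over all genes. The lists were drawn up with earlier results of these data known, so nothing is read from these shares. Without each differentiation sample in turn between 4 and 8 were called. Cxcl10, Junb, Mcam and Tlr5 were called in all 6 of these fits, while Chuk, Icam5, Itgb1, Ltbr and Traf2 were called in 0 of them. Tab1 was called in 3 of the 6, Ier3 and Tnc in 2, and Alcam, Ccl2 and Nfkbib in 1. With the pathways as annotated in the deposited tables (KEGG, lists chosen after values were seen), 63 genes of the NF-kappa B signalling pathway were tested under differentiation conditions, of which 4 rose and 5 fell. Of the 64 tested genes of the Toll-like receptor signalling pathway 3 rose and 4 fell, and under proliferating conditions limma called 0 in either.

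**Figure D4:**
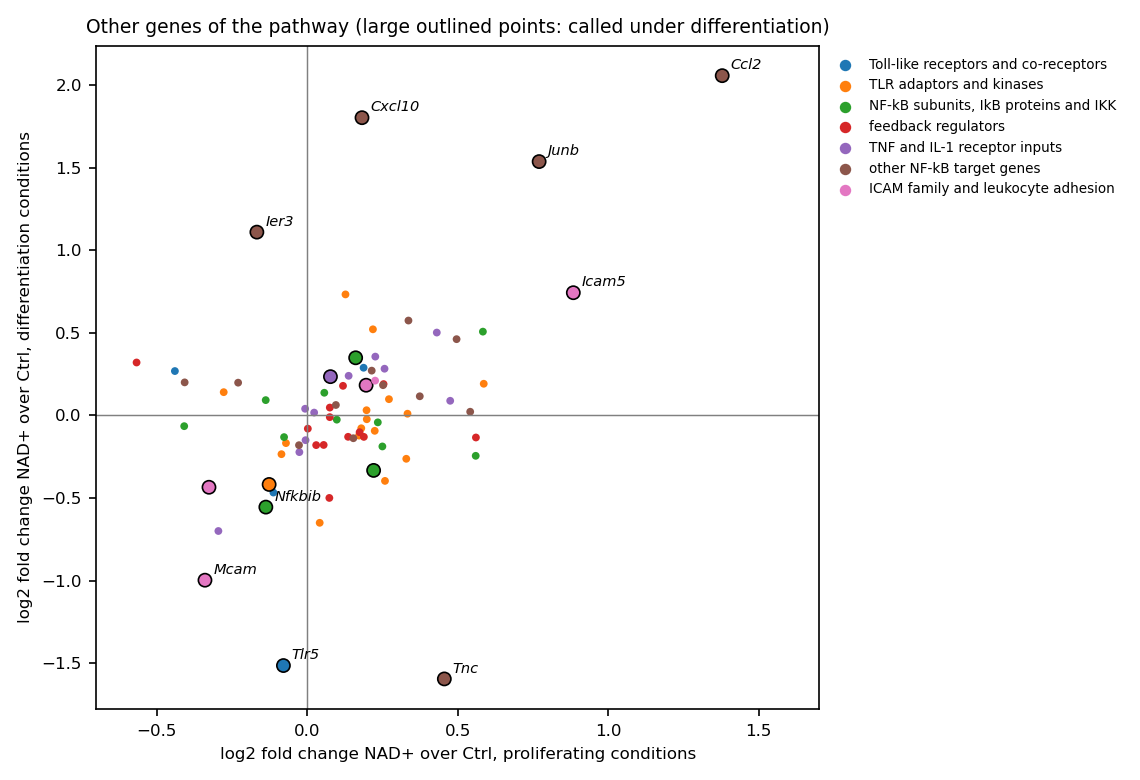
Log2 fold change of NAD+ over Ctrl under proliferating (horizontal axis) and differentiation (vertical axis) conditions for the 78 other pathway genes tested under both, coloured by list; large outlined points have an adjusted p under 0.05 under differentiation conditions, and those beyond 0.5 in either direction are named. Ccl2 (2.06), Cxcl10 (1.80) and Junb (1.54) lie at the top and Tlr5 (-1.51) and Tnc (-1.60) at the bottom.

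The genes most like Tlr2 across the 12 samples, after centring on the mean of each condition, were Arl6ip5 (Pearson r = 0.961), H2-D1 (0.961) and Bst2 (0.952), of 11648 genes compared. H2-D1 is a class I antigen-presenting molecule and Bst2 an interferon-induced membrane protein. Under differentiation conditions H2-D1 went from a mean of 45.95 to 100.5 FPKM and Bst2 from 1.82 to 5.60. For Nfkbia they were Igfbp2 (0.849), Slc16a1 (0.845) and Ltbp4 (0.827). These correlations are descriptions, since the 12 samples share the 2 group differences and all genes of a sample share its scaling. For Icam1 none is given, as its values span a few rounding steps.

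The 10 genes lie on 8 chromosomes of mm10 (GENCODE M21). Tlr2 is at chr3:83836272-83841767 and Vcam1 at chr3:116109949-116129688, both on the minus strand. Myd88 is at chr9:119335934-119341411 on the minus strand and Icam1 at chr9:21015985-21028817 on the plus strand. Tlr3 is at chr8:45395665-45411080, Nfkbia at chr12:55489410-55492647, Relb at chr7:19606217-19629438 and Tnfaip3 at chr10:19000910-19015657, all on the minus strand. Tlr4 is at chr4:66827584-66930284 and Nfkb2 at chr19:46304320-46312385, both on the plus strand. Exon bases are shared with a gene on the opposite strand for Nfkb2 (18.1%, Psd and AC114539.1), Icam1 (11.7%), Myd88 (11.3%, Acaa1a), Tlr3 (7.32%) and Vcam1 (0.688%). Whether the counting used strand is not given in the sources used here, and without strand reads of such partners cannot be told apart.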

How the data were processed

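RNA-seq was analysed for 12 samples of aNSPCs (Ctrl and NAD+, proliferating and differentiation conditions). Reads had been aligned (Hisat2 v2.0.5, mm10) and counted (FeatureCounts v2.0.1) by the authors, who deposited FPKM values per gene in 1 table for each condition. Columns of the authors' own comparison (fold change, log2 fold change, p-value and q-value) were not used. The labels list all samples as untreated, so groups follow the sample titles. Values were used as log2(FPKM + 0.1) without rescaling. Within each condition, genes averaging 0.1 FPKM or more across its 6 samples were fitted with limma 3.58.1 (R 4.3.3; two-sided, variance moderated with a trend), with Benjamini-Hochberg adjustment over all tested genes. The difference between conditions was a contrast in a fit of all 12 samples. FPKM values hold no read counts, so depth and counting error are unknown.

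The 10 genes and the pathway lists were chosen with earlier results of these data known. Named were the 10 genes, list genes with an adjusted p-value under 0.05 (up to 6 per list and condition), family members by level, the 3 genes most like Tlr2, Nfkbia and Icam1, and genes stated in the text as named after their values were seen. The fits were tested on simulated data in which 200 genes were changed. Alternatives were other added values, filters, scalings, no variance moderation, a replicate block and leaving out samples. Tables and figures used Python 3.11.15, pandas 2.3.3, numpy 2.4.6 and matplotlib 3.10.9.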

Additional observations from a re-analysis of the deposited data

Results flagged for a closer look

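The NAD+ effect differed between differentiation and proliferating conditions in the fit of all 12 samples (limma, adjusted p under 0.05) for 3 of the pathway genes tested. As a difference of log2 fold changes it was 1.62 for Cxcl10 (adjusted p = 0.0185), 1.28 for Ier3 (adjusted p = 0.0331) and -2.05 for Tnc (adjusted p = 0.0168). None of the 3 was called in every fit without 1 sample. For Tlr2, chosen with its values known and so given without a test, the same difference was 1.58.

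Zc3h12a, the ribonuclease Regnase-1 that degrades inflammatory transcripts, went opposite ways in every sample. It was at 0.31, 0.34 and 0.32 FPKM in proliferating Ctrl against 0.29, 0.16 and 0.13 with NAD+, and at 0.75, 0.84 and 0.75 in differentiation Ctrl against 0.85, 0.98 and 1.19 with NAD+. The difference of the effects was 0.89 and did not pass the test (adjusted p = 0.211).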

How the results depend on the processing

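Of 243 alternative log2 differences of the 10 genes, 235 moved by less than the spread between replicates and 8 moved by more. Filters, variance moderation and the replicate block cannot move a log2 difference, so part of the 235 was fixed in advance. The rule for a reversed direction covered only called genes, here Tlr2 under differentiation conditions, and found 0. Signs of small differences did turn, among them Tlr2 and Relb under proliferating and Tlr3 under differentiation conditions. By an unadjusted p under 0.05 and a ratio over 2, 2 of the 10 genes and 2 other pathway genes (Ccl2 and Icam5) were called under proliferating conditions in place of 0, and 8 pathway genes in place of 15 under differentiation conditions. The count of the 10 genes called under differentiation conditions, which supports nothing since they were chosen with values known, was 2 in place of 1 with a minimum mean FPKM of 1, median-ratio scaling or quantile normalization. Of the 15 pathway genes, 12 were called under median-ratio scaling (without Alcam, Chuk and Nfkbib) and 13 under quantile normalization (without Alcam and Nfkbib). Without moderation of the variance 7 pathway genes were called. Without 1 sample, between 4 and 8 pathway genes were called under differentiation conditions and between 0 and 4 for the difference between conditions. Without replicate 1 of both proliferating groups, an alternative chosen after seeing the data, 5 were called for that difference. The cause was not tested.

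To see whether replicate numbers pair, the log2 values of each sample were taken as deviations from the mean of its group. The r values that follow are of these deviations and not of whole samples. Ctrl and NAD+ samples with the same replicate number correlated at r from 0.0218 to 0.112 under proliferating conditions. Under differentiation conditions r was from 0.0260 to 0.0431. The deviations of Ctrl and NAD+ samples with unlike numbers correlated at r from -0.112 to 0.0732 and from -0.0398 to -0.00262. Under differentiation conditions each r of a same number thus lay above each other r, but all were small, and the numbers were not taken as pairs. With the replicate block, 8 pathway genes were called under differentiation conditions, 2 for the difference and 0 under proliferating conditions, and of the 10 genes 1 and 0. The calls lost with it were Ccl2, Chuk, Icam5, Itgb1, Ltbr, Nfkbib and Traf2 under differentiation conditions and Cxcl10 for the difference (adjusted p = 0.0783). The standard error of Vcam1 under proliferating conditions was 0.09 with the replicate block and 0.28 without. FPKM without counts limits what can be said of genes near 0, here Icam1 and Tlr4.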
